A study of Homo sapiens with 74 samples.

Results

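The genes described here are 35 genes of protein folding in the endoplasmic reticulum (ER) and of the unfolded protein response, listed by symbol and read from the RNA count table in all 8 RNA libraries. All 35 were found among the 39037 gene rows of that table, and all 35 passed the filter on low counts that left 17740 genes for testing. The genes were listed by function, and the rule itself uses no measured value. Earlier results of these data were, however, known when the list was chosen. The study mapped contacts of the genome with the nuclear lamina in HEK293T cells, a human embryonic kidney cell line, with DamID, in which the bacterial adenine methyltransferase Dam marks the DNA it touches. Its 74 samples included 8 RNA libraries, 4 bulk DamID libraries and 54 single cells that are used below. Each of 4 RNA groups held 2 libraries of polyA RNA. The first was labelled untreated. The second was transfected with m6A-Tracer, a fluorescent protein that binds methylated adenine, the third with DamV133A, a Dam mutant, and the fourth with DamV133A-LMNB1, that mutant fused to lamin B1. A single protocol text covers all samples: transient transfection with FuGene HD and 1 mM of the ligand Shield-1 for 20 hours. It does not say whether the untreated cells received the ligand or the transfection reagent, or whether the libraries of a group came from separate cultures, so p-values measure only the spread between these libraries. A transfected culture can mix cells with and without the construct, and a change in a few cells cannot be told apart from a smaller change in all of them.

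Secretory and membrane proteins enter the ER through the SEC61 channel, fold there with the help of chaperones and disulfide isomerases, and are sent to the cytosol for degradation when folding fails. When unfolded protein builds up, the sensors IRE1 (gene ERN1), PERK (gene EIF2AK3) and ATF6 signal to the nucleus. ATF6 and the IRE1 product XBP1 then raise the genes of chaperones and of ER-associated degradation, many of them through the ER stress response element in their promoters.

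That element is shown first because it is read from the DNA sequence and not from the RNA counts. The genes were listed by the response that the element serves, so its higher share among them is not independent of that choice. The motifs were searched on both strands of the 250 bases before the start site in RefSeq promoters of GRCh38.p14, which held 31 of the 35 genes. The ER stress response element was taken as CCAAT, 9 free bases and CCACG. It occurred before 7 of the 31 members (22.6%) and before 25 of all 27305 symbols with a promoter (0.0916%). Its short form, ATTGG, 1 free base and CCACG, occurred before 3 members (9.68%) and 18 symbols (0.0659%). Either form occurred before 10 of the 31 members, and the windows of the other 21 held neither. The core TGACGTG occurred before 1 member, HYOU1, where it overlapped the short form, and before 561 symbols (2.05%). A match describes the letters of these windows and does not show binding, and some of these promoters are textbook examples of the element. The 4 windows below are those of the chaperone HSPA5, the chaperone HSP90B1, the degradation factor HERPUD1 and the transcription factor XBP1, with the matched letters of either form in capitals. They lie at chr9:125241344-125241593 (minus strand), chr12:103930160-103930409 (plus), chr16:56931892-56932141 (plus) and chr22:28800570-28800819 (minus).
HSPA5: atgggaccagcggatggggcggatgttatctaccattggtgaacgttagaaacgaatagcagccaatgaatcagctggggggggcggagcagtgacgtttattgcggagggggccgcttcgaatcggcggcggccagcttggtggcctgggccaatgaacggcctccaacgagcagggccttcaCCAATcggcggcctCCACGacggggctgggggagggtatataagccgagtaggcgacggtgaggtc
HSP90B1: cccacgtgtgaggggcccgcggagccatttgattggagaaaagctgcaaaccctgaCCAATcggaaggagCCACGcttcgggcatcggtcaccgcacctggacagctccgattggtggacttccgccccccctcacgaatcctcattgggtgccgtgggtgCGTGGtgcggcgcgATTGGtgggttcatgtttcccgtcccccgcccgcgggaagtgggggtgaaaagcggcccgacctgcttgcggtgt
HERPUD1: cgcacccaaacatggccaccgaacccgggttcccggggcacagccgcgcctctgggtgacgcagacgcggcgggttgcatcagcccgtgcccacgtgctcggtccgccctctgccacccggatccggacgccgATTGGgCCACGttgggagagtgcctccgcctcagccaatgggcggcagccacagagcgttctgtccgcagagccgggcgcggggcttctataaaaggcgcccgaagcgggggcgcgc
XBP1: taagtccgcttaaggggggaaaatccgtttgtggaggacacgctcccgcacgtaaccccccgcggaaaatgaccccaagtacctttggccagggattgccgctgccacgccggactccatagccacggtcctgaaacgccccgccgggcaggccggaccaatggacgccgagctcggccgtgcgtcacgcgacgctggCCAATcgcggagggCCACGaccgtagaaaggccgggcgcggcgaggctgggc

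In HSPA5 the match lay 66 to 48 bases before the start, and in XBP1 it lay 52 to 34 bases before it. HSP90B1 held 2 matches, 194 to 176 bases before the start on the gene's strand and 89 to 71 bases before it on the opposite strand, which in the window above reads in reverse. The short form in HERPUD1 lay 117 to 107 bases before the start. The matches of the other 6 genes follow, read on the strand where the motif was found, to show how the free bases differ while the fixed letters do not. HYOU1 held its match at 2 places, 185 to 175 and 79 to 69 bases before the start.
CALR: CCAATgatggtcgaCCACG
CANX: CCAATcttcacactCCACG
PDIA6: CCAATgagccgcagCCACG
CRELD2: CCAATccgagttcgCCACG
SDF2L1: ATTGGtCCACG
HYOU1: ATTGGaCCACG

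Facts of the whole RNA set that touch these results come next. The libraries held 39690886 to 51455298 estimated counts, and 0.803% to 1.26% of counts were mitochondrial. Levels below are CPM, counts relative to the library total, after TMM scaling, which evens out library composition. LMNB1 stood at 2548 and 2056 CPM in the 2 fusion libraries, 249.6 and 253 in DamV133A, 251 and 257 in m6A-Tracer, and 767 and 768 in the libraries labelled untreated. LMNB1 was thus about 3-fold higher in the untreated libraries than in either group without LMNB1 in its construct (log2 fold change of DamV133A over untreated -1.61 ± 0.09 SE, edgeR adjusted p = 6.92e-05), and its part in the comparisons with untreated cells was not tested. The HEK293T markers NEFL, NEFM, INA, VIM and PAX2 were present in every library and LHX1 stayed at or under 1.5 CPM. The 6 markers summed to 1232 and 1275 CPM in untreated libraries and to 860 to 1007 in the other 6. Of 10 markers of other cell types, CD3E, HBB and JCHAIN were at or near 0 and COL1A1 and SDC1 made up most of the sum, which was 58.3 and 59.4 CPM in untreated libraries and 48.8 to 53.6 in the others. The part of either marker sum in the results was not tested. Library 2 of the fusion stood apart: its median distance from the median library was 0.23 on the log2 scale, against 0.06 to 0.14 for the other 7. Among the 35 genes, 11 differed by more than 0.2 (log2) between the 2 fusion libraries, and 0 did so between the 2 libraries of any other group. Over all tested genes 53.2% did so in the fusion and 23.6% to 24.7% in the other groups.

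HSPA5, HSP90B1 and HYOU1, the chaperones of the HSP70 and HSP90 class, were lower in every transfected group than in untreated cells. By edgeR's quasi-likelihood test, with an adjusted p under 0.05 as the threshold, DamV133A had 15 of the 35 genes lower and 2 higher than untreated cells, where 13.1% and 13.6% of all tested genes were called lower and higher. m6A-Tracer had 12 lower and 0 higher, against 4.67% and 7.62% of all genes. The fusion had 9 lower and 0 higher, against 7.56% and 11.4% of all genes. Median log2 fold changes of the 35 genes were -0.08, -0.11 and -0.08 in that order, next to 0.01, 0.01 and -0.00 over all genes. With no adjustment, 21, 16 and 17 members had a p under 0.05, in either direction, and DESeq2 called 2 members higher in DamV133A, 0 in m6A-Tracer and 1 in the fusion, where it called 12.1%, 7.24% and 11% of all genes higher. The 3 comparisons share the untreated libraries and are not independent of each other. Of the 35 genes, 8 were lower in all 3: HSPA5, HSP90B1, HYOU1, PDIA4, HERPUD1, EDEM1, DERL3 and SSR1. Another 4 were lower in 2 groups, 4 in 1 group and 19 in none. The share of all tested genes lower in several groups was not counted, so these overlap counts have no background to be read against.

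**Figure D1:**
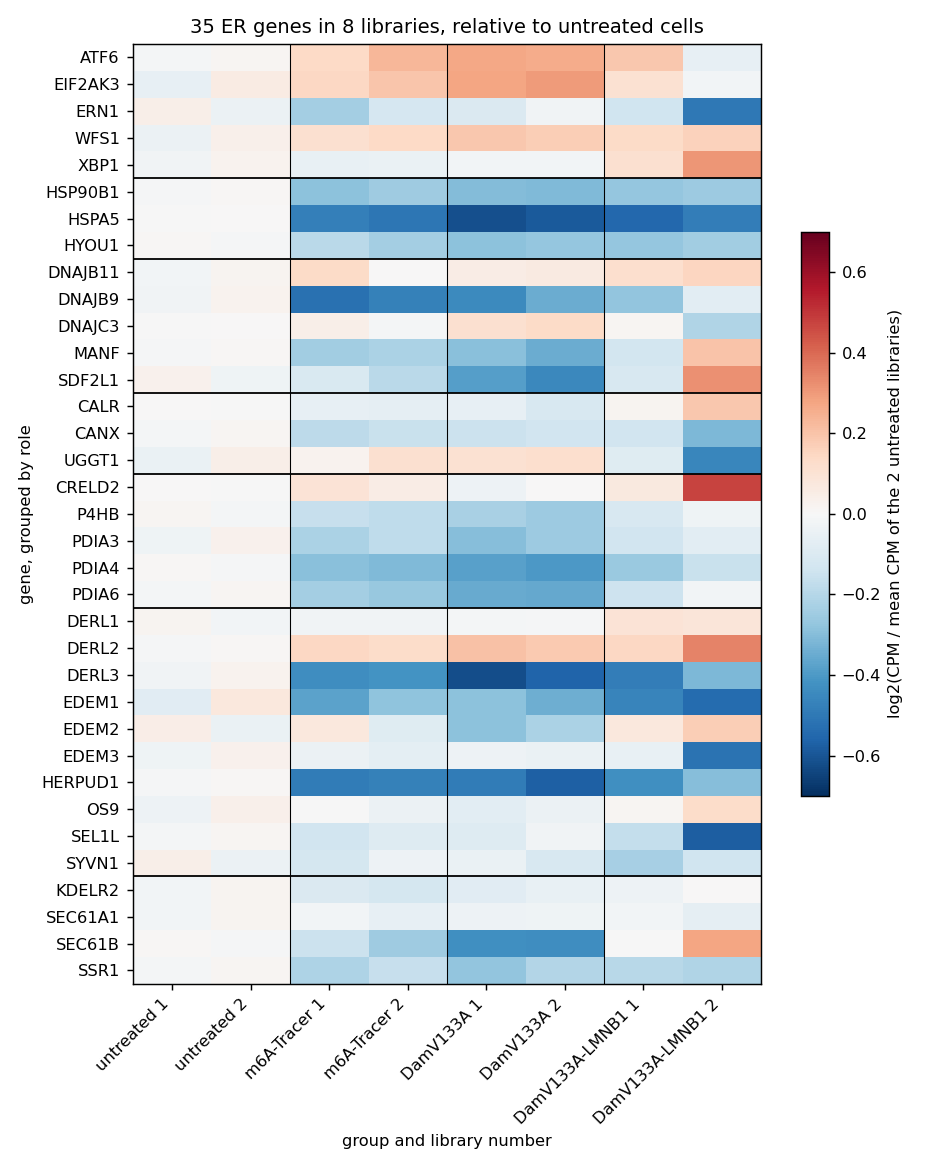
Each cell is the log2 ratio of a library's TMM-scaled CPM to the mean of the 2 untreated libraries, for the 35 genes in rows grouped by role and the 8 libraries in columns. The rows of HSPA5, HERPUD1 and DERL3 are blue in all 6 transfected libraries, and fusion library 2 differs from fusion library 1 in many rows.

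HSPA5 encodes BiP, the HSP70 chaperone of the ER lumen that also holds the stress sensors inactive. Its level was 998 and 1001 CPM in untreated cells, 717 and 703 with m6A-Tracer, 654 and 666 with DamV133A and 683 and 716 with the fusion. The 6 transfected libraries all lay below the 2 untreated ones, with no overlap. The log2 fold change from untreated cells was -0.60 ± 0.04 (SE, edgeR adjusted p = 0.000162) with DamV133A, -0.49 ± 0.04 (adjusted p = 0.000724) with m6A-Tracer and -0.52 ± 0.04 (adjusted p = 0.000562) with the fusion. These correspond to 0.66, 0.71 and 0.7 of the untreated level. HSPA5 kept its call in each of these comparisons under every alternative run.

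HSP90B1 encodes GRP94, the HSP90 chaperone of the ER. It measured 971 and 984 CPM in untreated cells, 802 and 821 with m6A-Tracer, 791 and 790 with DamV133A and 811 and 820 with the fusion. Untreated libraries were again the highest pair, and the 3 transfected groups lay close together. The log2 fold changes were -0.31 ± 0.04, -0.27 ± 0.04 and -0.26 ± 0.04 for DamV133A, m6A-Tracer and the fusion, with edgeR adjusted p = 0.00185, 0.00617 and 0.00514. HYOU1, which recharges BiP with nucleotide, had 175 and 173 CPM in untreated cells, 153 and 148 with m6A-Tracer, 143 and 144 with DamV133A and 145 and 147 with the fusion. Its log2 fold changes were -0.28, -0.21 and -0.25, each ± 0.05. HYOU1 kept its call in 10 of 13 alternatives with DamV133A, 7 of 13 with m6A-Tracer and 9 of 12 with the fusion. The table lists HYOU1 under 2 identifiers with near-equal counts, and DERL3 likewise, so their reads were split and their levels here are those of 1 identifier.

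**Figure D2:**
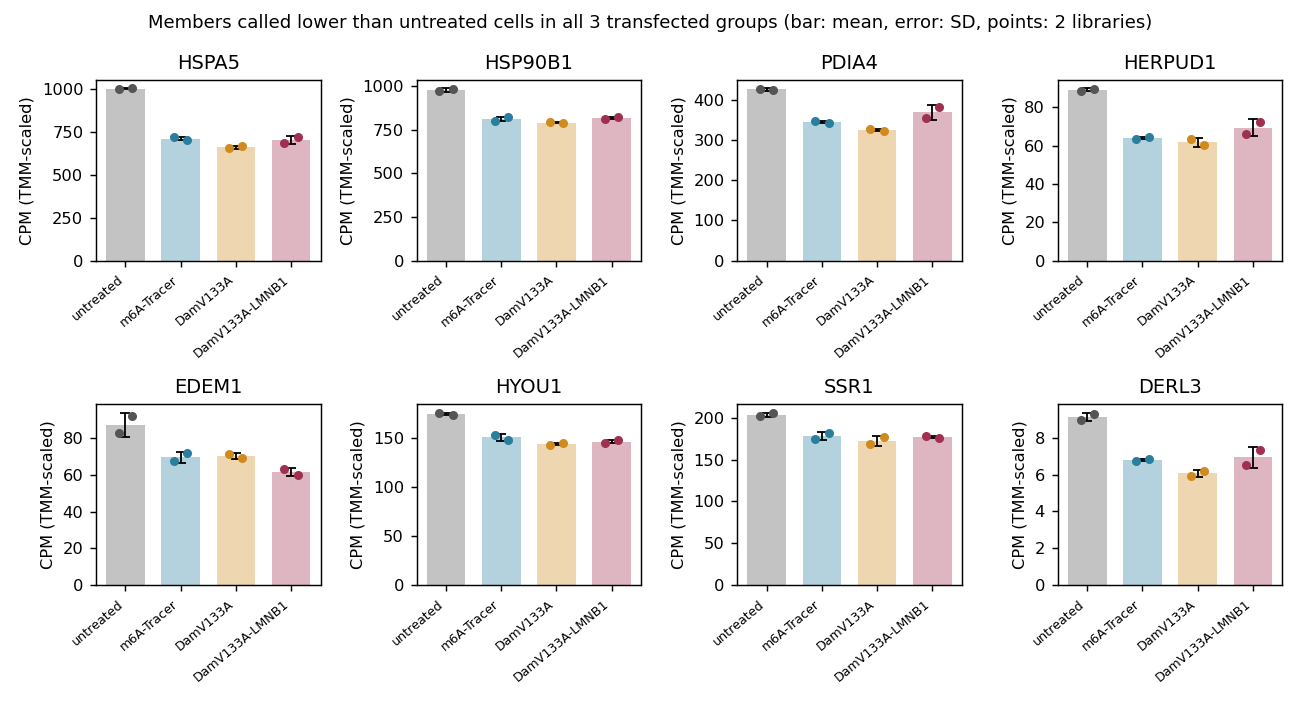
Bars give the mean TMM-scaled CPM of the 2 libraries of a group with its SD, points give the libraries, and each panel is 1 of the 8 genes called lower than untreated cells in all 3 transfected groups. The untreated points lie above all others in every panel, and the 3 transfected groups differ from each other by less than they differ from untreated cells in most panels.

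Cochaperones of BiP were lower in fewer groups than BiP itself. DNAJB9, a J-domain protein that draws BiP to IRE1, had 15.8 and 16.3 CPM in untreated cells, 11.2 and 11.6 with m6A-Tracer, 11.8 and 12.6 with DamV133A and 13.3 and 15.2 with the fusion. It was lower with m6A-Tracer (log2 fold change -0.50 ± 0.09, edgeR adjusted p = 0.0145) and DamV133A (-0.40 ± 0.09, adjusted p = 0.0175), while the fusion's value was -0.17 ± 0.09 (adjusted p = 0.223). SDF2L1, an ER protein that works with the cochaperone DNAJB11, had 73.5 and 70.5 CPM in untreated cells, 66.9 and 63.1 with m6A-Tracer, 55.0 and 52.7 with DamV133A and 66.6 and 89.9 with the fusion. Only its DamV133A value passed the test (-0.42 ± 0.12, edgeR adjusted p = 0.0397), and the 2 fusion libraries lay on either side of the untreated ones. MANF, an ER protein that binds BiP, had 109 and 111 CPM in untreated cells, 92.8 and 94.3 with m6A-Tracer, 89.9 and 86.6 with DamV133A and 101 and 127 with the fusion. It too passed only with DamV133A (-0.32 ± 0.10, edgeR adjusted p = 0.0429). DNAJB11 and DNAJC3, both J-domain partners of BiP, passed in no comparison, with log2 fold changes from untreated cells between -0.09 and 0.13.

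Disulfide isomerases, which form and reshuffle the disulfide bonds of new proteins, gave 4 lower genes of 5 listed in 2 of the 3 comparisons. That is 80% with DamV133A and with m6A-Tracer, against 13.1% and 4.67% of all genes. The fusion had 20% of the list lower, against 7.56% of all genes. PDIA3, PDIA4, PDIA6 and P4HB were lower with DamV133A (log2 fold changes from -0.39 to -0.24) and with m6A-Tracer (-0.30 to -0.17), and only PDIA4 with the fusion (-0.21 ± 0.05, edgeR adjusted p = 0.0267). In m6A-Tracer none of the 4 calls held when any 1 of the 4 libraries compared was left out, and P4HB lost its call in 10 of 13 alternatives and PDIA3 in 6 of 13. With DamV133A PDIA4 and PDIA6 kept theirs in all 13, PDIA3 in 10 and P4HB in 9. PDIA4 had 428 and 424 CPM in untreated cells, 348 and 344 with m6A-Tracer, 327 and 323 with DamV133A and 356 and 383 with the fusion, with no overlap between untreated and transfected libraries. PDIA6 had 420 and 428 CPM in untreated cells, 359 and 353 with m6A-Tracer, 333 and 331 with DamV133A and 383 and 419 with the fusion, whose second library reached nearly the untreated level. CRELD2, a secreted ER stress protein that binds isomerases, passed in no comparison, and its level of 66.9 CPM in fusion library 2 was the highest of the 8, the others lying between 47.2 and 51.6.

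The lectin chaperones, which hold glycoproteins by their sugar, gave few calls. CALR (calreticulin) had log2 fold changes of -0.08, -0.06 and 0.11 for DamV133A, m6A-Tracer and the fusion, none past the test. CANX (calnexin) had -0.14, -0.17 and -0.22, of which the fusion's passed (± 0.06, edgeR adjusted p = 0.0355). Fusion library 2 was the lowest for CANX, at 1028 CPM, with the other 5 transfected libraries at 1125 to 1164 and the untreated ones at 1267 and 1291.

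Within ER-associated degradation the calls fell on 3 of 10 genes, the same 3 in each comparison with untreated cells. That is 30%, against 13.1%, 4.67% and 7.56% of all genes lower with DamV133A, m6A-Tracer and the fusion. HERPUD1, a membrane protein that gathers the degradation complex, had 88.8 and 89.7 CPM in untreated cells, 63.6 and 64.3 with m6A-Tracer, 63.5 and 60.1 with DamV133A and 66.2 and 72.6 with the fusion. Its log2 fold changes were -0.53 ± 0.06 with DamV133A, -0.48 ± 0.06 with m6A-Tracer and -0.36 ± 0.06 with the fusion (edgeR adjusted p = 0.00135, 0.00392 and 0.00848). EDEM1, which trims mannose from misfolded glycoproteins, had 82.7 and 92.1 CPM in untreated cells, 67.4 and 71.8 with m6A-Tracer, 71.7 and 69.1 with DamV133A and 63.4 and 60.2 with the fusion. It was the one of the 3 with its lowest level in the fusion (-0.50 ± 0.07, edgeR adjusted p = 0.00402). DERL3, a derlin of the retrotranslocation complex, had 9.00 and 9.32 CPM in untreated cells, 6.77 and 6.85 with m6A-Tracer, 5.95 and 6.21 with DamV133A and 6.55 and 7.36 with the fusion. Its log2 fold changes were -0.59, -0.43 and -0.40, each ± 0.10. DERL3 kept its call in 12 of 13 alternatives with DamV133A, 7 of 13 with m6A-Tracer and 7 of 12 with the fusion. The ligase SYVN1, its partner SEL1L, the lectin OS9, the derlins DERL1 and DERL2, and EDEM2 and EDEM3 passed in none of these 3 comparisons, with log2 fold changes from -0.36 (SEL1L in the fusion) to 0.25 (DERL2 in the fusion).

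Of the sensors, ATF6 and EIF2AK3 were higher with DamV133A, and none was lower in any comparison with untreated cells. They were the only members higher there, 5.71% of the 35, below the 13.6% of all genes. ATF6 kept its call in 8 of 13 alternatives, with log2 fold changes from 0.25 to 0.36. EIF2AK3 kept its call in 9 of 13, with values from 0.23 to 0.38. ATF6 had 78.5 and 79.7 CPM in untreated cells, 87.0 and 93.0 with m6A-Tracer, 95.3 and 94.7 with DamV133A and 90.2 and 75.9 with the fusion. It was higher with DamV133A (log2 fold change 0.26 ± 0.08, edgeR adjusted p = 0.0477), and fusion library 2 lay below the untreated libraries while fusion library 1 lay above them. EIF2AK3 had 21.3 and 23.1 CPM in untreated cells, 24.6 and 25.4 with m6A-Tracer, 26.9 and 27.3 with DamV133A and 23.9 and 21.9 with the fusion. It too was higher with DamV133A (0.29 ± 0.07, edgeR adjusted p = 0.0239). ERN1 had 23.6 and 22.4 CPM in untreated cells, 19.5 and 21.2 with m6A-Tracer, 21.4 and 22.6 with DamV133A and 20.9 and 16.3 with the fusion, and no comparison with untreated cells passed. XBP1 had 207 and 214 CPM in untreated cells, 203 and 204 with m6A-Tracer, 208 and 207 with DamV133A and 228 and 261 with the fusion. Its log2 fold changes from untreated cells were -0.02 ± 0.07, -0.05 ± 0.07 and 0.21 ± 0.07 (edgeR adjusted p = 0.853, 0.672 and 0.0587). XBP1 acts through a spliced form of its mRNA, which counts per gene do not separate from the unspliced one. WFS1, an ER membrane protein, had values of 0.18, 0.13 and 0.15, none past the test.

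Of the translocation and retrieval genes, SSR1, a subunit of the translocon-associated complex, was lower in all 3 groups (log2 fold changes -0.24, -0.19 and -0.20, each ± 0.05). SSR1 kept its call in 8 of 13 alternatives with DamV133A, 6 of 13 with m6A-Tracer and 9 of 12 with the fusion. SEC61B, a small subunit of the SEC61 channel, had 86.0 and 84.8 CPM in untreated cells, 76.9 and 72.0 with m6A-Tracer, 63.4 and 63.2 with DamV133A and 85.3 and 103 with the fusion. It was lower with DamV133A (-0.43 ± 0.09, edgeR adjusted p = 0.0105), and its fusion libraries were level with or above the untreated ones. The channel subunit SEC61A1 and the retrieval receptor KDELR2 passed in no comparison, with log2 fold changes from untreated cells between -0.11 and -0.02.

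The number of calls depended on single libraries. Without 1 of the 4 libraries compared, 5 to 8 members were lower with DamV133A (5 without DamV133A library 1, 6 without its library 2, 8 without untreated library 1 and 7 without untreated library 2) and 0 were higher, where 2.8% to 3.84% and 4.76% to 5.34% of all genes were called lower and higher. With m6A-Tracer 1 member, HSPA5, was lower without any 1 of its 4 libraries, against 0.303% to 0.352% of all genes. With the fusion 2 were lower without untreated library 1 or 2, against 0.571% and 0.617% of all genes. Without fusion library 2, 16 members were lower and 2 higher, against 13.4% and 15.6% of all genes, and without fusion library 1, 13 were lower and 10 higher, against 20.9% and 24.9%. With fusion library 2 out of the shared fit, an alternative chosen after seeing the data, DamV133A had 19 members lower and 6 higher, against 24% and 23.4% of all genes. In the same fit m6A-Tracer had 19 lower and 4 higher, against 18.3% and 18.8%. When libraries were scaled by their totals alone, the median of all genes stood at 0.10 for DamV133A, and 11, 7 and 8 members were lower and 4, 0 and 2 higher for DamV133A, m6A-Tracer and the fusion. The shares of all genes were then 8%, 2.82% and 5.94% lower and 19.6%, 11.3% and 12.6% higher. Fitted on only the 4 libraries compared, the fusion kept HSPA5 alone as a lower member, where 0.208% of all genes were called lower. No called member changed direction under any of these alternatives.

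Members with and without the promoter element were set side by side. Of the 10 with either form, 6 were lower with DamV133A, 5 with m6A-Tracer and 5 with the fusion. Of the 21 whose window held neither, 7, 5 and 3 were lower. Over all tested genes 13.1%, 4.67% and 7.56% were lower in these comparisons. Median log2 fold changes with DamV133A were -0.29 for members with either form and -0.06 for those with neither. The same medians were -0.19 and -0.05 with m6A-Tracer, and -0.15 and -0.07 with the fusion. HSPA5, HSP90B1, HERPUD1 and HYOU1 carried the element and were lower in all 3 groups, and so were PDIA4, EDEM1 and SSR1, whose windows held neither form. CALR, CRELD2 and XBP1 carried it and were lower in none. These are counts, with no test.

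The next comparison was between the lamin B1 fusion and DamV133A alone, whose constructs differ by lamin B1. Of the 35 genes, 9 were higher with the fusion and 1 was lower, where 12.7% and 7.55% of all tested genes were called higher and lower. The median log2 fold change was 0.08 for the 35 genes and -0.02 for all genes. The higher ones were SEC61B, SDF2L1, EDEM2, MANF, PDIA6, XBP1, PDIA4, PDIA3 and P4HB, and the lower one was UGGT1. Their p-values rest on a spread estimated over all 4 groups, and the fusion libraries differed more from each other than those of other groups. When the fit used only the 4 libraries compared, none of these calls held. In that fit 0.00577% and 0% of all genes were called higher and lower. SEC61B had the highest value at 0.58 ± 0.09 (edgeR adjusted p = 0.018), a 1.49-fold level, and the per-library CPM given above did not overlap. SDF2L1 followed at 0.54 ± 0.12 (edgeR adjusted p = 0.0271), 1.45-fold. MANF had 0.36 ± 0.10, PDIA6 0.27 ± 0.05 and XBP1 0.23 ± 0.07 (edgeR adjusted p = 0.037, 0.0209 and 0.0438).

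EDEM2, a partner of EDEM1 in mannose trimming, had 18.7 and 19.6 CPM with DamV133A and 24.0 and 25.7 with the fusion, next to 23.5 and 22.1 in untreated cells and 24.0 and 21.5 with m6A-Tracer. The 2 DamV133A libraries were the lowest of the 8, and the log2 fold change of the fusion over DamV133A was 0.38 ± 0.08 (edgeR adjusted p = 0.0236). UGGT1, which tags unfinished glycoproteins for another round with calnexin, had 132 and 133 CPM with DamV133A, 116 and 89.7 with the fusion, 119 and 127 in untreated cells and 125 and 133 with m6A-Tracer. Both fusion libraries lay below both DamV133A libraries, library 2 by far the more (-0.37 ± 0.11, edgeR adjusted p = 0.0459). HSPA5, HSP90B1 and HYOU1 did not pass, with log2 fold changes of 0.08 ± 0.04, 0.05 ± 0.04 and 0.02 ± 0.05.

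**Figure D3:**
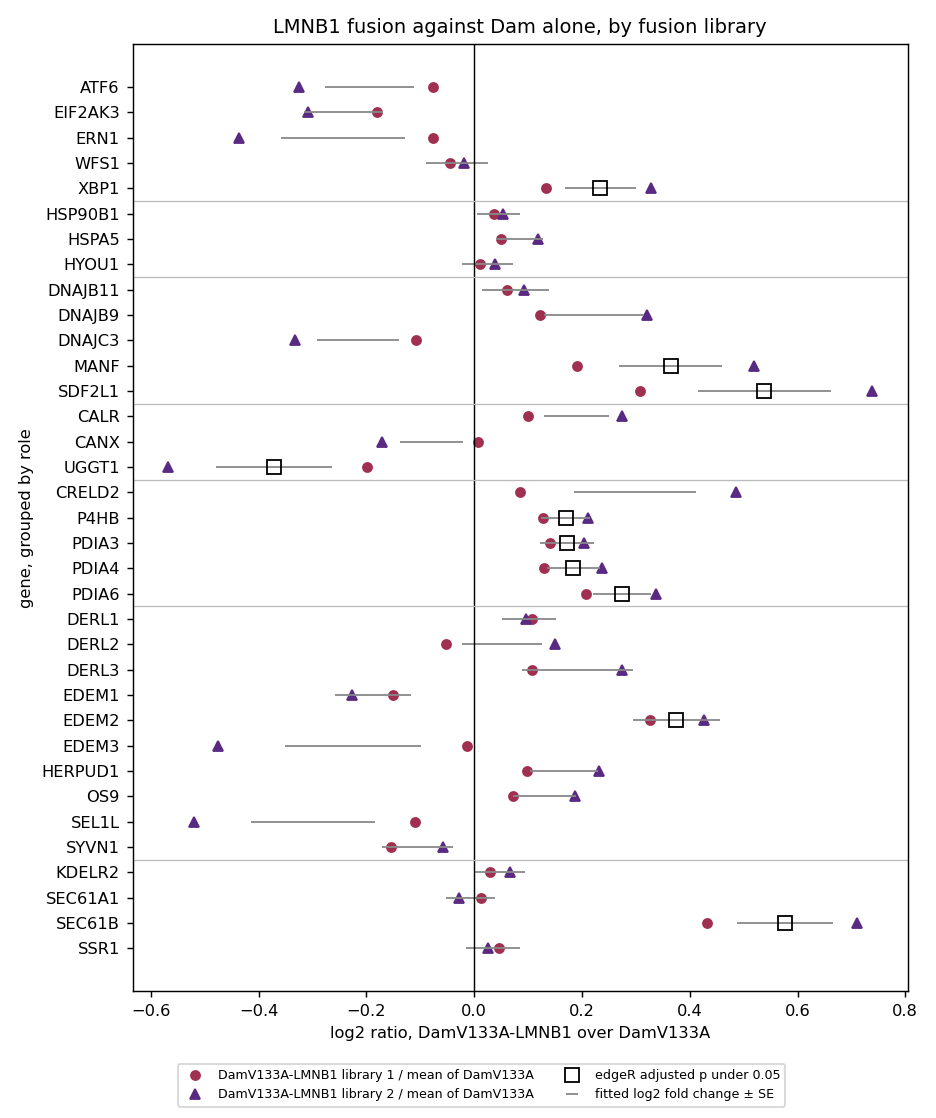
The horizontal axis is the log2 ratio of the fusion to the mean of the DamV133A libraries, with circles for fusion library 1, triangles for fusion library 2 and lines for the fitted log2 fold change ± SE. Squares mark the 10 called genes, and for each of these both fusion libraries lie on the same side of 0, with library 2 farther out.

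For all 10 called genes fusion library 2 lay farther from DamV133A than library 1, as in SDF2L1, where the log2 fold change was 0.76 without library 1 and 0.31 without library 2. Without fusion library 2, 10 members were higher and 1 lower, where 13.6% and 10.2% of all genes were called higher and lower. Without fusion library 1 it was 19 and 9 members, against 25.7% and 23% of all genes. Without DamV133A library 1 or library 2, 0 members were called in either direction, SEC61B then standing at 0.58 in both cases with adjusted p = 0.131 and 0.163, and over all genes 1 was called higher and 0 lower in each case. Library totals, which moved the median of all genes to -0.10 here, gave 4 higher and 4 lower, against 8.22% and 13.3% of all genes.

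Between transfected groups and m6A-Tracer no member was called. DamV133A against m6A-Tracer gave 0 of 35 by edgeR and 0 by DESeq2 (3 members had an unadjusted p under 0.05), where 0.0507% and 0.0733% of all genes were called higher and lower. The fusion against m6A-Tracer gave 0 by edgeR (8 members had an unadjusted p under 0.05), where 0.0564% and 0.175% of all genes were called higher and lower. DESeq2 called 3 members higher and 1 lower there, against 8.65% and 5.73% of all genes. The largest values of the latter comparison were SEC61B at 0.34 ± 0.09 and UGGT1 at -0.33 ± 0.11 (edgeR adjusted p = 0.066 and 0.093). Single libraries moved these counts: without fusion library 1 the fusion had 16 members higher and 8 lower than m6A-Tracer, against 24.7% and 20.9% of all genes, and without library 2 it had 3 and 1, against 8.86% and 6.13%. With fusion library 2 out of the shared fit, DamV133A had 7 members lower than m6A-Tracer, against 6.52% of all genes.

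Other genes of the pathway came from 6 lists of 120 genes, all of which were tested. Of 30 further folding enzymes and cochaperones, 15 (50%) were lower and 1 (3.33%) higher with DamV133A than in untreated cells. The counts were 6 (20%) and 0 with m6A-Tracer, and 5 (16.7%) and 1 (3.33%) with the fusion. Over all genes 13.1% and 13.6% were lower and higher with DamV133A, 4.67% and 7.62% with m6A-Tracer, and 7.56% and 11.4% with the fusion. The lower enzymes included FKBP9, a proline isomerase (-0.56 ± 0.06 with DamV133A), and ERO1A, the oxidase that recharges the disulfide isomerases (-0.52 ± 0.06), both lower in all 3 groups. Of 24 genes of the translocon, signal peptidase and oligosaccharyltransferase, 11 (45.8%) were lower and 1 (4.17%) higher with DamV133A. Against untreated cells m6A-Tracer had 6 (25%) lower and 1 (4.17%) higher, and the fusion had 2 (8.33%) lower and 2 (8.33%) higher. In the fusion 12 (50%) were higher and 0 lower than in DamV133A, against 12.7% and 7.55% of all genes. SEC61G, the third subunit of the SEC61 channel, had 61.7 and 58.7 CPM in untreated cells, 42.1 and 40.9 with DamV133A and 56.3 and 75.6 with the fusion, which gave -0.54 ± 0.12 for DamV133A and 0.67 ± 0.12 for the fusion over DamV133A (edgeR adjusted p = 0.0156 and 0.0196). Like SEC61B, it was lowest in DamV133A.

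The PERK branch was read from 11 genes of the ATF4 program. With DamV133A 3 (27.3%) were higher and 3 (27.3%) lower than in untreated cells, against 13.6% and 13.1% of all genes. The higher ones were PPP1R15A, which restores translation (0.51 ± 0.10), SESN2 (0.30 ± 0.05) and PPP1R15B (0.22 ± 0.06), and the lower ones were CEBPB (-0.42 ± 0.10), ATF4 itself (-0.31 ± 0.07) and ASNS (-0.28 ± 0.05). With the fusion 2 (18.2%) were higher, PPP1R15A and SESN2, and 0 lower, against 11.4% and 7.56% of all genes. With m6A-Tracer 1 (9.09%) was higher and 2 (18.2%) lower, against 7.62% and 4.67%. ATF4 had 991 and 984 CPM in untreated cells, 859 and 861 with m6A-Tracer, 805 and 791 with DamV133A and 933 and 1093 with the fusion. The fusion was above DamV133A by 0.34 ± 0.07 (edgeR adjusted p = 0.0217). ATF4 was 1 of 4 genes of this list (36.4%) that were higher there, against 12.7% of all genes. ATF3, a stress-induced factor of the same program, was the one gene of the 120 called between the fusion and m6A-Tracer (0.37 ± 0.05, edgeR adjusted p = 0.0307).

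Of 22 further degradation genes, 8 (36.4%) were higher and 1 (4.55%) lower in the fusion than in DamV133A, against 12.7% and 7.55% of all genes. In DamV133A 1 was higher and 1 lower than in untreated cells (4.55% each), below the 13.6% and 13.1% of all genes. Of 20 genes of traffic between ER and Golgi, 8 (40%) were lower and 1 (5%) higher with DamV133A, against 13.1% and 13.6% of all genes. Among the lower ones were the retrieval receptors KDELR1 (-0.28 ± 0.07) and KDELR3 (-0.33 ± 0.08). For the same 20 genes m6A-Tracer had 2 (10%) lower and 0 higher, against 4.67% and 7.62% of all genes. The fusion had 3 (15%) lower and 1 (5%) higher than untreated cells, against 7.56% and 11.4% of all genes. Of 13 further sensors and activators, 2 were lower and 1 higher with DamV133A and with m6A-Tracer alike, which is 15.4% and 7.69% of the list, next to 13.1% and 13.6% of all genes for DamV133A and 4.67% and 7.62% for m6A-Tracer. The lower ones in both were CREB3L1 and CREB3L4, membrane-bound factors of the ATF6 type, at -0.52 ± 0.12 and -0.52 ± 0.10 with DamV133A. The higher one was NFYC, a subunit of the factor that binds CCAAT (0.31 ± 0.06). The fusion had 4 of the 13 higher (30.8%) and 1 lower (7.69%) than untreated cells, against 11.4% and 7.56% of all genes.

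The DamID data gave a readout of the same genes that the RNA did not. Each gene was placed in the 100 kb bin that holds its start site, or its midpoint for PDIA3, DERL1, DERL3 and KDELR2, and each lay in a bin of its own. Bulk counts of 2 DamV133A-LMNB1 and 2 DamV133A libraries were compared per bin, where a lower value with the fusion means less lamina contact relative to the rest of the genome. The bins of 31 of the 35 genes were lower with the fusion and 0 were higher, where 36.2% and 35.2% of all 27944 bins were called lower and higher. Of 14541 RNA-tested genes placed the same way 70.8% were in lower bins and 7.79% in higher ones. The median log2 fold change was -0.85 for the members' bins and -0.78 for those of all RNA-tested genes.

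The bin of MANF had the lowest value, -2.08 ± 0.26 (edgeR adjusted p = 7.08e-07), with 7.25 and 11.1 CPM in the fusion libraries and 36.8 and 40.8 in the DamV133A libraries. That of HSPA5 had 34.1 and 36.6 CPM with the fusion and 51.1 and 58.6 with DamV133A (-0.63 ± 0.19, edgeR adjusted p = 0.00482). The 4 bins not called were those of SEL1L (0.35 ± 0.20), DNAJB9 (0.12 ± 0.18), EDEM3 (0.06 ± 0.16) and CRELD2 (-0.63 ± 0.30). In SEL1L the libraries overlapped, with 48.2 and 60.9 CPM for the fusion and 50.1 and 35.2 for DamV133A. Fewer of the members' bins were called lower when any 1 bulk library was left out, and the fewest without DamV133A library 2. The share of all bins called in those fits was not counted, so a loss of calls in all bins cannot be told from a loss in these.

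In single cells a bin was counted as in contact when its fragments reached the number expected from the summed bulk DamV133A libraries. The members' bins were in contact in a median of 13.3% of the 15 batch 1 cells with DamV133A-LMNB1, against 26.7% for all bins, 60.0% for bins called higher in bulk and 13.3% for bins called lower. In the 36 batch 2 cells, whose fusion also carried tdTomato, the median was 13.9%, against 38.9%, 63.9% and 13.9%. In the 3 batch 1 cells with DamV133A alone, which has no lamin B1, the same measure does not report lamina contact. There the members' bins reached the expected fragments in a median of 66.7% of cells, against 33.3% for all bins. Nothing in the labels links cells to cultures, so a group of cells was treated as a single sample, without a test. Contact calls rest on few fragments, with a median of 4.57 expected per member bin and cell in batch 1 and 5.47 in batch 2.

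SEL1L had the highest share in batch 2, 19 of 36 cells or 52.8% (exact Clopper-Pearson 95% interval 35.5% to 69.6%), and 3 of 15 in batch 1. DNAJB9 had 13 of 36 (36.1%, interval 20.8% to 53.8%) and 5 of 15. HSPA5 was in contact in 1 of 36 batch 2 cells (2.78%, interval 0.0703% to 14.5%) and in 0 of 15 batch 1 cells, which allows a share of up to 20.0% (3 counts of 15; the exact upper limit is 21.8%). The intervals and that limit cover counting error only.

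**Figure D4:**
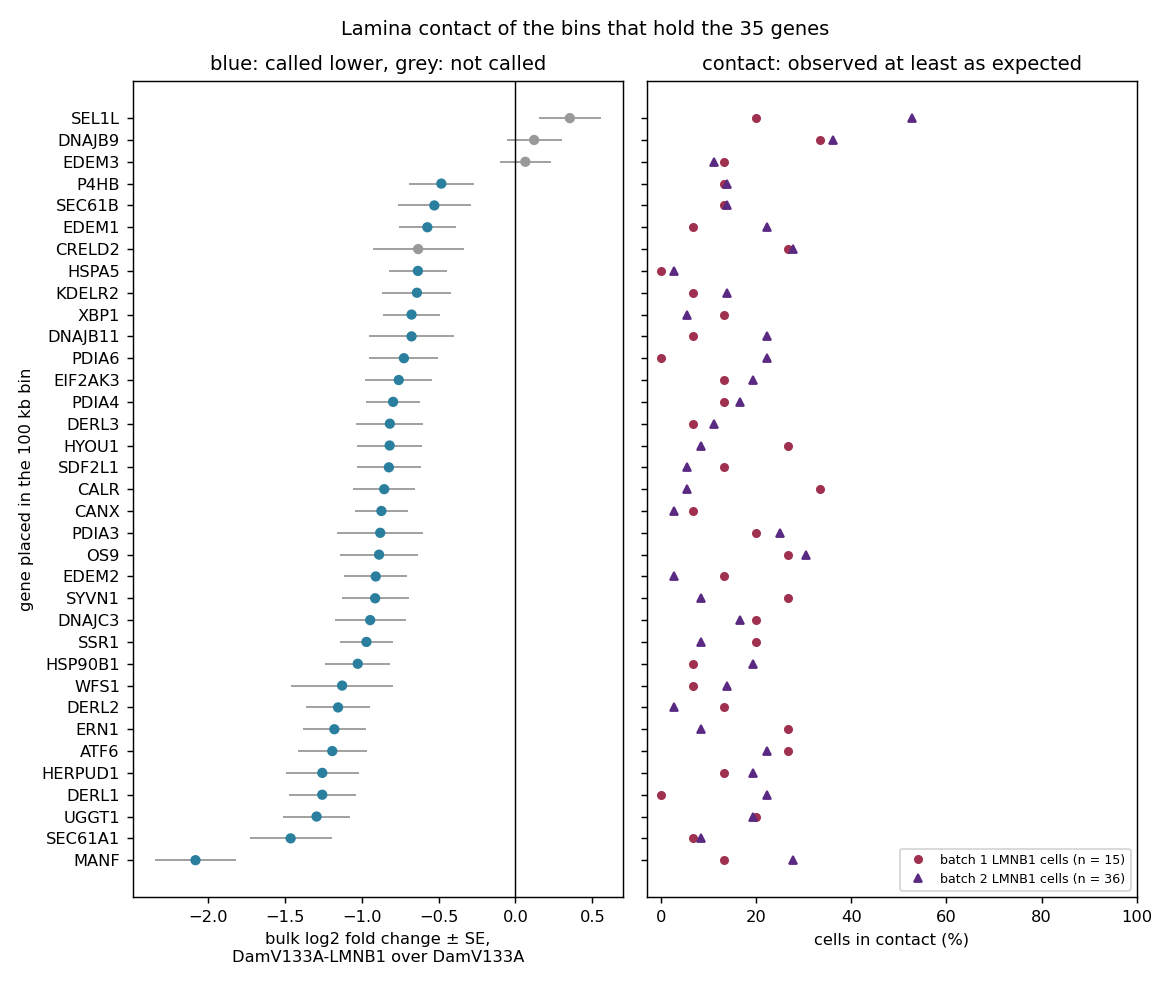
The left panel gives the bulk log2 fold change ± SE of the bin of each gene, blue where called lower with the fusion and grey where not called, and the right panel gives the percent of single cells in contact, with circles for 15 batch 1 cells and triangles for 36 batch 2 cells. Bulk values run from -2.08 at MANF to 0.35 at SEL1L, and SEL1L has the highest batch 2 share, 52.8%.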

How the data were processed

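HEK293T RNA, bulk DamID and single-cell DamID tables were used. The authors deposited RNA as estimated counts per Ensembl gene, not whole numbers, and DamID as counts per 100 kb bin of hg38, per the file headers. Salmon, limma, DESeq2, bedtools 2.28, SAMtools 1.9, BWA 0.7.15-r1140 and Trimmomatic 0.39 stand in the submitters' processing notes, with no role given. Here estimated counts were rounded and fitted over 8 RNA libraries in 4 groups with edgeR 4.0.16 (filterByExpr, TMM, quasi-likelihood test, Benjamini-Hochberg over all tested genes or bins, adjusted p under 0.05) in R 4.3.3. The bins of 4 bulk libraries were fitted likewise. DESeq2 1.42.0 and other filters, scalings and left-out libraries were alternatives. The fit was tested on simulated data. The members and lists were chosen with earlier results of these data known. Library values are printed for HSPA5, HSP90B1, XBP1, ATF6, ERN1, EIF2AK3 and up to 6 called members per direction and comparison with the largest log2 fold change, and other genes as counts, ranges or examples. Up to 3 called genes per direction are named from each further list. Levels are not compared between genes. The table of Dam variants was not used here.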

Additional observations from a re-analysis of the deposited data

How the results depend on the processing

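Of 48 calls on single members, 7 held under every alternative (HSPA5 in all 3 comparisons with untreated cells, and HERPUD1, HSP90B1, PDIA4 and PDIA6 in DamV133A against untreated), and of 605 values under alternatives 428 stayed on the same side of the threshold, 177 lost the call and 0 changed direction. Counts of members that moved by over 1.5 times are given below as higher and lower, with causes that were not tested. The shares of all genes moved as well, and those for library totals stand above. With only the 4 libraries compared, 0.00577% of all genes were higher and 0% lower in the fusion against DamV133A. In the same setting 24.8% and 26.1% were higher and lower in DamV133A against untreated, and 19.7% and 20.8% in m6A-Tracer. The fusion against untreated then had 1.24% and 0.208%, and DamV133A against m6A-Tracer 5.9% and 5.67%. Fusion against DamV133A (9 and 1): library totals 4 and 4, no filter 4 lower, a filter of 1 CPM 2 lower, DESeq2 2 lower, only the 4 libraries compared 0 and 0, and leaving out a library 0 to 19 and 0 to 9. DamV133A against untreated (2 and 15): library totals 4 higher, only 4 libraries 6 higher, without fusion library 2 6 higher, and leaving out a library 0 to 6 and 5 to 19. m6A-Tracer against untreated (0 and 12): library totals 7 lower, only 4 libraries 1 and 20, and leaving out a library 0 to 4 and 1 to 19. Fusion against untreated (0 and 9): library totals 2 higher, no filter 3, a filter of 1 CPM 2, DESeq2 1, only 4 libraries 1 lower, and leaving out a library 0 to 10 and 2 to 16. DamV133A against m6A-Tracer: only 4 libraries 5 lower, and leaving out a library 0 to 7 lower. Fusion against m6A-Tracer: no filter 7 and 2, DESeq2 3 and 1, and leaving out a library 0 to 16 and 0 to 8. Members' bins were called higher in 0 to 1 and lower in 19 to 30 cases when a bulk library was left out. The share of all bins called in those fits was not counted. Over all genes, with no filter, a filter of 1 CPM and DESeq2, 8.23%, 11.7% and 9.56% were lower in the fusion against DamV133A. In the fusion against untreated 8.55%, 14.7% and 11% were then higher. With no filter 7.19% and 6.54% were higher and lower in the fusion against m6A-Tracer. With contact set at 2 times the expected fragments, median shares were 6.67% in batch 1 and 2.78% in batch 2. The same measure gave 33.3% in Dam-only cells, where it does not report lamina contact. Where leaving out a library left 1 in a group, that sample was assumed to vary like the other groups.

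With the replicate number as a block, the counts were 4 and 0 for the fusion against DamV133A, against 8.01% and 3.7% of all genes. Against untreated they were 1 and 13 for DamV133A (all genes 11.5% and 10.6%) and 0 and 7 for m6A-Tracer (5.42% and 2.6%). For the fusion against untreated they were 0 and 7 (8.71% and 5.23%). In the bulk DamID data 31 of the members' bins were lower with this block, and the share of all bins was not counted. The replicate numbers do not pair the libraries: correlations of same-numbered deviations ran from -0.05 to 0.02 over 6 pairs.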
